A study of Homo sapiens with 6 samples.

Results

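Interferon signalling genes of the STAT and IRF families were examined in ZR-75-1, a human luminal breast cancer cell line that expresses the oestrogen receptor (ER), after treatment with the CDK4/6 inhibitor abemaciclib. The group was defined by 9 gene symbols (STAT2, STAT3, IRF1, IRF9, IFIT1, ISG15, IFI6, IFI27 and OAS1), which were matched by Ensembl identifier to 9 of the 60656 genes in the count table. The matching used no measured value, but the 9 were chosen with earlier results of these data known. Parental cells were grown in medium with serum and received 500 nM abemaciclib or an equal volume of DMSO for 4 days, and each group had 3 libraries. Every library came from the same parental line with no added interferon or other cytokine named in the sources. The RB1-knockout cells of the study were not analysed here.

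Interferons are secreted proteins that warn cells of infection. Type I interferon binds the receptor chains IFNAR1 and IFNAR2, the kinases JAK1 and TYK2 then phosphorylate STAT2, and a complex that holds STAT2 and IRF9 binds the interferon-stimulated response element (ISRE) in promoters. Interferon gamma acts through JAK1 and JAK2 at gamma-activated sites (GAS) and raises IRF1, itself a transcription factor. STAT3 belongs to the same family but responds mainly to cytokines of the IL-6 group, through the shared receptor chain IL6ST. IFIT1, ISG15, IFI6, IFI27 and OAS1 are classical interferon-induced genes. IFIT1 binds foreign RNA, ISG15 is a ubiquitin-like protein that is joined to other proteins, OAS1 makes an activator of RNase L when it meets double-stranded RNA, and IFI6 and IFI27 are small hydrophobic membrane proteins.

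The promoters of the 9 genes differed in the response elements they held, and are shown because genes with the same element were at very different levels. In RefSeq (GRCh38.p14) windows from 250 bases before to 50 bases after the start of each gene, the ISRE core, written GAAANNGAAA, was searched on both strands, and the GAS core, TTCNNNGAA, reads the same on both. The ISRE core was in the windows of IFIT1, ISG15, IFI6 and IFI27, against 3.57% of the 35116 promoter windows in the table. The GAS core was in those of IRF1, IRF9, IFI27 and OAS1, against 7.66%. STAT2 and STAT3 had neither, which says only that these letters are not in the window. A match is a string of letters and not a measured binding site. The stretches shown run from −170 to −51 relative to the start, in the direction of the gene, with matches in capitals, for the 4 genes with an ISRE core and the pair of transcription factor genes with a GAS core. They lie at chr1:27672243-27672362 (minus strand), chr1:1013327-1013446 (plus), chr10:89392453-89392572 (plus), chr14:94110566-94110685 (plus, the first of its start sites in the table), chr5:132490824-132490943 (minus) and chr14:24161095-24161214 (plus).
IFI6: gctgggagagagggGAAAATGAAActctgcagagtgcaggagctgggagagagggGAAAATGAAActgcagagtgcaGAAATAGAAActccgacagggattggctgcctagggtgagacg
ISG15: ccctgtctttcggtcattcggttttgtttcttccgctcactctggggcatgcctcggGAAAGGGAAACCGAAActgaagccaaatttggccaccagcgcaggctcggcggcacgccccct
IFIT1: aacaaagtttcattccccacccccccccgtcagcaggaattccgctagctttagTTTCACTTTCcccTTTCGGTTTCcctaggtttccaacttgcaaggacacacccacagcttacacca
IFI27: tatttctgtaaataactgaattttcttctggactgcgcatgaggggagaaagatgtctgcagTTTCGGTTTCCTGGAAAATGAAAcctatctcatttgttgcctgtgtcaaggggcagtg
IRF1: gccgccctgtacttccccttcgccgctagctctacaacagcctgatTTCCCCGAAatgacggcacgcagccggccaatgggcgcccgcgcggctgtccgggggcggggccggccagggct
IRF9: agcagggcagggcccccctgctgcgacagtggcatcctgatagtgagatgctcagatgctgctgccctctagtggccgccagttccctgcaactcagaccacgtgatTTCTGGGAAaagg

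IFI6 held 3 ISRE cores, ISG15 2 that overlap by a few bases, IFIT1 2 on the opposite strand, and IFI27 2, 1 on each strand, with a GAS core overlapping both.

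**Figure D1:**
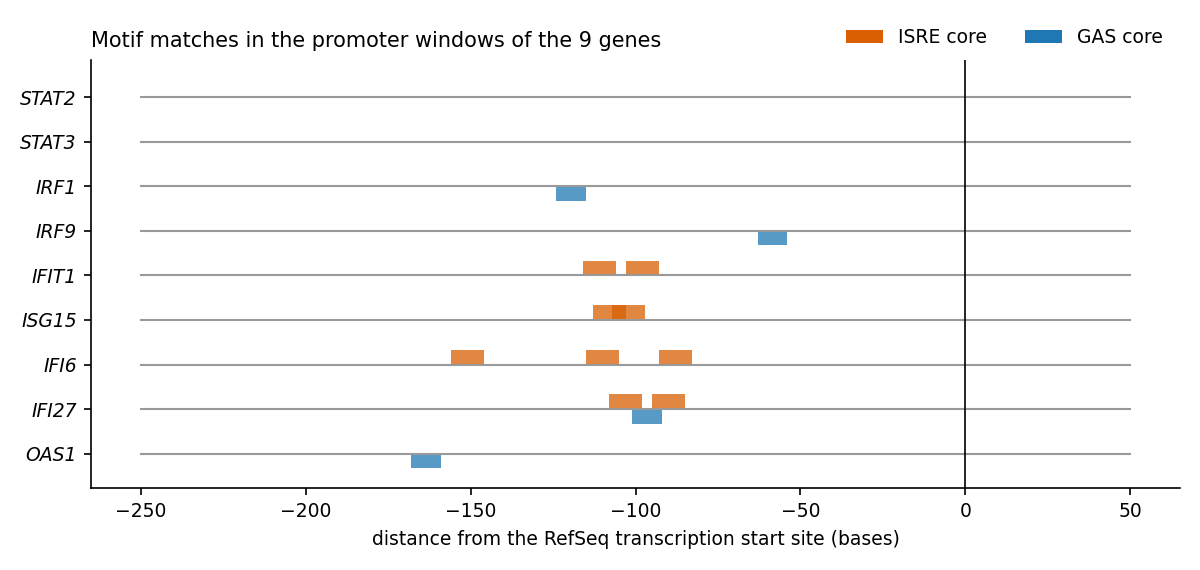
Positions of the ISRE core (orange) and the GAS core (blue) in the promoter windows of the 9 genes, by distance in bases from the RefSeq start site (vertical line). For IFI27 the first start site is used. The ISRE matches lie between −156 and −84, and no match is drawn for STAT2 or STAT3.

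The 6 libraries were made with a 3′ mRNA kit, which reads only the ends of polyadenylated transcripts. Levels therefore need no correction for gene length and are given as CPM, counts per 1000000 of the TMM-scaled library total. Total counts were between 3317860 and 4013156, and 0 counts in a library allow a level of up to 3 counts by counting error alone. That is 0.748 to 0.904 per 1000000 of the library total before TMM scaling. All 8 luminal epithelial markers were tested and present. The 8 immune cell markers together had 0 to 4 counts in a DMSO library and 0 to 1 in an abemaciclib library, with PTPRC, CD3E and CD14 at 0 in all 6. Of 5 stromal markers, COL1A1 was present, at 13.1 ± 2.68 CPM with DMSO and 12.5 ± 2.67 CPM with abemaciclib (SD, n = 3). COL1A2, PDGFRB and PECAM1 were at 0 in all 6, and VWF had 11 counts over all libraries. The proliferation marker MKI67 had 526 ± 31.4 CPM with DMSO and 5.00 ± 2.28 CPM with abemaciclib (SD, n = 3 libraries), which on the log2 scale was a difference of −6.71 (edgeR adjusted p = 4.61e-22). Across the 10863 genes in edgeR's quasi-likelihood test, 12.5% passed the adjusted threshold of 0.05 upwards and 13.3% downwards. Among the 8 luminal markers, 2 passed upwards, ESR1 and KRT19 (log2 fold changes 0.83 and 0.45), and 1 downwards, KRT18 (−0.34).

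With abemaciclib, 1 of the 9 genes passed the test: STAT3 rose by 1.43-fold. Only 4 of the 9, STAT2, STAT3, IRF1 and IFI6, had enough counts to be tested, against the 12.5% of all tested genes that were called higher. None of the 4 was called lower by edgeR, 0 were lower at an unadjusted p under 0.05, and 0 were called lower by DESeq2. The other 5, IRF9, IFIT1, ISG15, IFI27 and OAS1, each had 0 counts in at least 1 library. Apart from IFI6, the interferon-induced members were near the detection limit with and without the drug.

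STAT3, the transducer of IL-6 family cytokines, was by far the most abundant of the 9. It lies on chromosome 17 of GRCh38 from 42313324 to 42388540 on the minus strand, and its mean level was above that of 96.1% of the 20429 genes with a count. It had 161, 169 and 165 CPM in the DMSO libraries and 233, 242 and 232 CPM in the abemaciclib libraries. The groups did not overlap, and the spread within each was small, with means of 165 ± 3.87 and 236 ± 5.05 CPM (SD, n = 3). The log2 fold change was 0.52 (standard error 0.10, 95% confidence interval 0.31 to 0.72, edgeR adjusted p = 0.000228), and it was between 0.50 and 0.53 with each library left out in turn. In bulk RNA, a change in the mix of cells and a change in RNA per cell cannot be told apart, and the part of the fall in MKI67 in these differences was not tested.

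STAT2, a transducer of the type I interferon response, lies on chromosome 12 from 56341597 to 56360203 on the minus strand. It had 15, 20 and 2 counts in the DMSO libraries, or 4.35, 5.94 and 0.606 CPM, and 21, 28 and 25 counts with abemaciclib, or 6.35, 6.91 and 6.76 CPM. The abemaciclib libraries lay close together and above all DMSO libraries, and DMSO replicate 3 stood below the other DMSO libraries. The log2 fold change of 0.87 (standard error 0.51, 95% confidence interval −0.17 to 1.90) did not pass the test (edgeR adjusted p = 0.224). It was 0.37 without DMSO replicate 3 and 1.40 without DMSO replicate 2.

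IRF1, a transcription factor induced by interferon gamma, lies on chromosome 5 from 132440440 to 132508719 on the minus strand. It had 9.57, 11.9 and 8.18 CPM with DMSO and 6.35, 7.15 and 10.5 CPM with abemaciclib. The groups overlapped, since abemaciclib replicate 3 lay above DMSO replicates 1 and 3. The log2 fold change was −0.30 (standard error 0.34, 95% confidence interval −0.99 to 0.40, edgeR adjusted p = 0.576). That interval is wide enough to hold a moderate fall or a small rise.

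IRF9, which binds DNA in a complex with STAT2, was not tested. It had 1, 5 and 6 counts with DMSO and 0, 6 and 2 with abemaciclib, 12 against 8 in all, so the groups overlapped. The ratio of abemaciclib to DMSO was 0.61, with a 95% interval of 0.216 to 1.62 (exact binomial, counting error only). The count of this gene is uncertain, because another annotated gene, a read-through that joins RNF31 to IRF9 on the same strand, covers 331 of the last 500 bases of the main IRF9 transcript. That gene and RNF31 itself were listed at 0 in all 6 libraries. A further annotated gene overlaps part of these last 500 bases on the opposite strand. Reads that fit more than 1 gene can be dropped in counting, and the part of this in the low count was not tested.

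IFI6 was the only interferon-induced gene of the 5 with enough counts to be tested. It lies on chromosome 1 from 27666064 to 27672212 on the minus strand. The DMSO libraries had 42, 37 and 44 counts and the abemaciclib libraries 50, 60 and 85 counts, with means of 12.2 ± 1.17 and 17.6 ± 4.62 CPM (SD, n = 3). The groups did not overlap in CPM either, and abemaciclib replicate 3 stood above the other 2. The log2 fold change of 0.53 (standard error 0.26, 95% confidence interval −0.0046 to 1.07) did not pass the test (edgeR adjusted p = 0.142), and it was 0.30 without abemaciclib replicate 3. In a later annotation release the lncRNA gene LINC02574 shares 216 of the last 500 bases of IFI6 on the same strand, and it was listed at 0 in all 6 libraries.

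ISG15, whose promoter window holds the overlapping ISRE cores shown above, had 1, 6 and 5 counts with DMSO and 0, 3 and 3 with abemaciclib. The totals were 12 and 6 counts, a ratio of 0.457 with a 95% interval of 0.141 to 1.32 (exact binomial, counting error only). The groups overlapped, and neither a rise nor a fall was detectable at this depth. ISG15 lies on chromosome 1 from 1001138 to 1014540 on the plus strand.

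IFIT1, on chromosome 10 from 89392546 to 89406487, had 1 count in DMSO replicate 2 and 5 counts in abemaciclib replicate 3, and 0 in the other 4 libraries. All of the abemaciclib counts came from a single library, and the ratio of 4.57 had an interval of 0.512 to 216. IFI27, on chromosome 14 from 94104836 to 94116695, had 2, 0 and 1 counts with DMSO and 0 in all 3 abemaciclib libraries. OAS1, on chromosome 12 from 112905856 to 112933219, had 0, 2 and 0 counts with DMSO and 1, 0 and 1 with abemaciclib. For IFI27 and OAS1 no ratio was computed, since both groups were at or under the floor of 3 counts over the group. Over all 3 abemaciclib libraries the upper 95% limit was 0.334 CPM for IFI27 and 0.653 CPM for OAS1 (exact Poisson, counting error only).

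Ordered by their DMSO means, the levels ran from STAT3 through IFI6 (12.2 ± 1.17 CPM), IRF1 (9.88 ± 1.87 CPM) and STAT2 (3.63 ± 2.74 CPM) to ISG15 (1.20 ± 0.796 CPM) and IRF9 (1.20 ± 0.803 CPM), with IFI27, OAS1 and IFIT1 lowest at means of 0.294, 0.198 and 0.099 CPM. STAT3 stood apart from IFI6 by far more than the spread. The ranges of IFI6 and IRF1 overlapped in the DMSO libraries, as did those of STAT2 with ISG15 and IRF9. Those of ISG15 and IRF9 also overlapped the ranges of IFI27, OAS1 and IFIT1, and the lowest 3 could not be ordered. Among the 4 genes with an ISRE core, IFI6 had 318 counts over the 6 libraries, against 18 for ISG15, 6 for IFIT1 and 3 for IFI27. Abemaciclib replicate 1 had 4 of the 9 genes at 0, the most of any library, while DMSO replicate 2 and abemaciclib replicate 3 had 1 each.

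**Figure D2:**
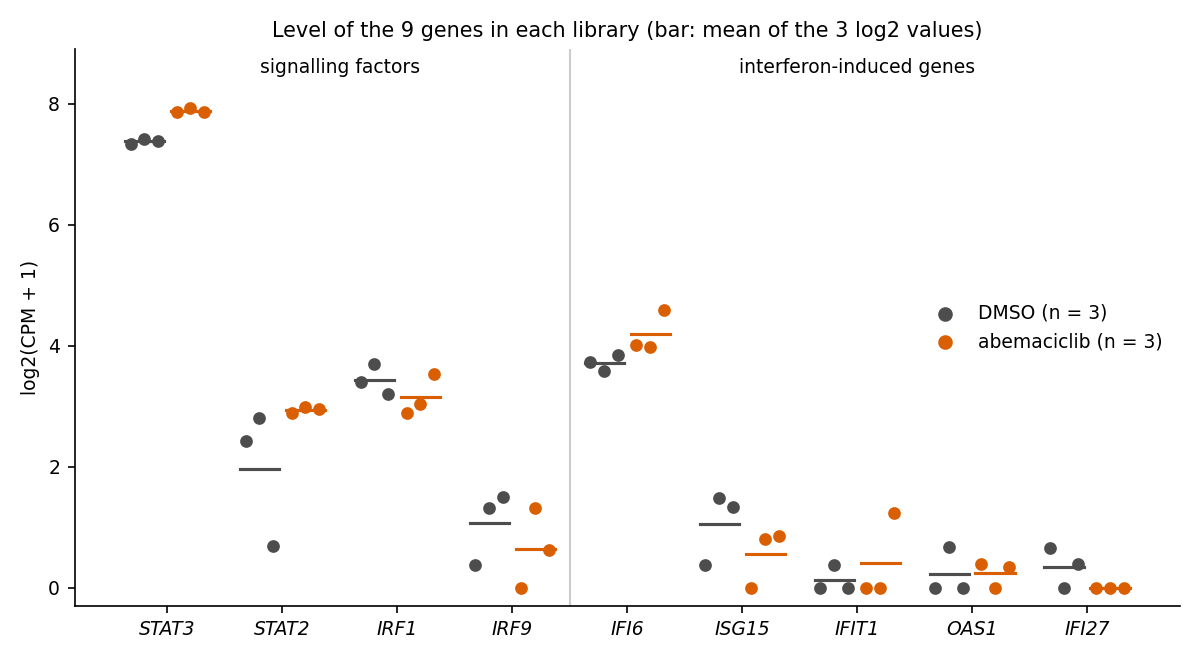
Level of each of the 9 genes in each library, as log2(CPM + 1), with DMSO in grey and abemaciclib in orange (n = 3 each) and a bar at the mean of the log2 values. STAT3 separates at 161 to 169 against 232 to 242 CPM, STAT2 and IFI6 separate with a wider spread in 1 group, and IRF9, ISG15, IFIT1, OAS1 and IFI27 stay below 2 CPM in every library.

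Of the 4 tested genes, 3 (STAT2, STAT3 and IFI6) had every abemaciclib library above every DMSO library, against 19.1% of all 10863 genes tested, but only those with enough counts entered this count. The median log2 fold change of the 4 was 0.53, against −0.002 over all genes tested, and it was −0.07 when the low-count filter was dropped and all 9 entered.

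The receptor chains and kinases around STAT3 were examined from a list of 14 genes, of which 10 were tested. Of these, 4 rose and 0 fell (0 downwards at an unadjusted p under 0.05, 0 by DESeq2), against 12.5% and 13.3% of all genes tested, and their median log2 fold change was 0.52, against −0.002. These were both chains of the IL-6 receptor and the kinases JAK1 and JAK2, which also serve the interferon receptors. IL6R, the IL-6 receptor, had 7.83, 8.32 and 7.57 CPM with DMSO and 13.9, 18.3 and 15.9 CPM with abemaciclib (log2 fold change 1.02, edgeR adjusted p = 0.00825). IL6ST, the signal-transducing chain shared by the IL-6 family, had a mean of 86.7 ± 11.4 CPM with DMSO and 147 ± 5.52 CPM with abemaciclib (SD, n = 3), which on the log2 scale was a difference of 0.76 (edgeR adjusted p = 1.33e-05). JAK1 rose by 0.86 and JAK2 by 0.70 on the log2 scale, with adjusted p-values of 3.89e-05 and 0.00747. These 4 calls held at the 0.05 threshold in all other fits run and without each library, though only IL6R exceeded a log2 fold change of 1. The 3′ end of JAK1 overlaps RAVER2 on the opposite strand, and the sources do not say whether counting used the strand, so its counts are uncertain.

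Of the 6 interferon receptor chains on the same list, 3 were tested and did not pass. The log2 fold change of IFNAR1 was −0.02 (95% confidence interval −0.44 to 0.39), that of IFNAR2 0.14 (−0.48 to 0.75) and that of IFNGR2 0.33 (−0.22 to 0.88). IFNGR1, IFNLR1 and IL10RB had too few counts for the test. IFNGR1, the ligand-binding chain for interferon gamma, had 8 counts in each DMSO library and 9, 23 and 20 with abemaciclib. Its groups did not overlap in CPM, and the ratio was 1.98 with a 95% interval of 1.20 to 3.36 (exact binomial, counting error only). TYK2, the other kinase of the type I receptor, was at 0.27 (−0.29 to 0.83). LIFR, the receptor for leukaemia inhibitory factor, was at 0.71 with non-overlapping groups (95% confidence interval 0.12 to 1.29, edgeR adjusted p = 0.0698). OSMR, the oncostatin M receptor, was at −0.49 with overlapping groups (−1.61 to 0.62, edgeR adjusted p = 0.562). The difference between the IL-6 and the interferon receptor chains was not itself tested.

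Among 11 other STAT and IRF factors 5 were tested, and 1, STAT6, the transducer of IL-4 and IL-13, was higher, against 12.5% of all genes tested. STAT6 had 47.6, 49.9 and 50.6 CPM with DMSO and 79.3, 71.1 and 79.7 CPM with abemaciclib, a log2 fold change of 0.63 (standard error 0.14, edgeR adjusted p = 0.000791). Its 3′ end overlaps NAB2 from the other strand, which makes its counts uncertain too. None was lower by edgeR or DESeq2, and 1, STAT5B, was lower at an unadjusted p under 0.05, with a log2 fold change of −0.75. STAT4, IRF4, IRF7 and IRF8 had 0 counts in all 6 libraries.

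**Figure D3:**
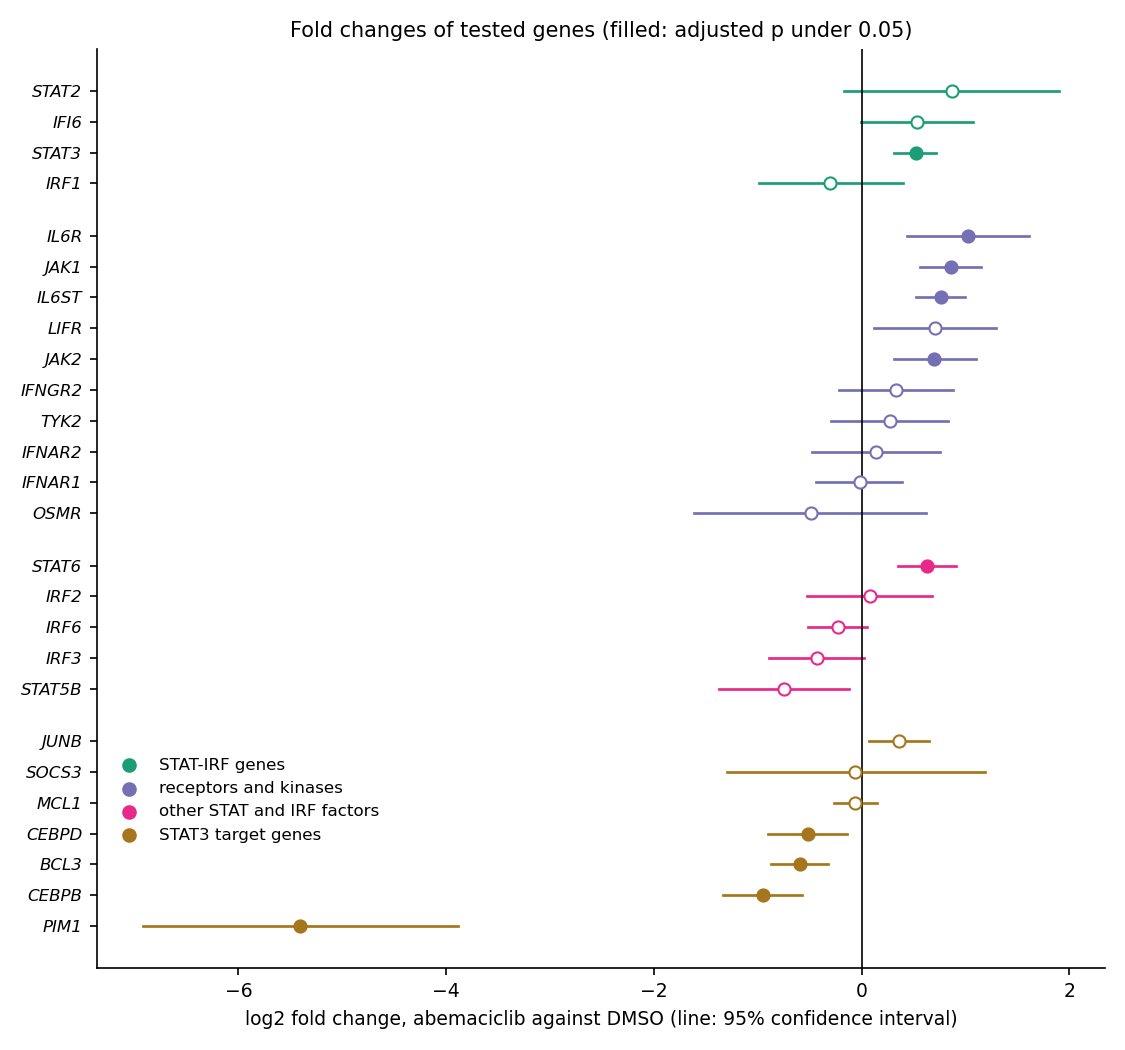
Log2 fold change of abemaciclib against DMSO for the tested genes among the 9 and on 3 lists of related genes, with 95% confidence intervals and filled points where the adjusted p was under 0.05. STAT3, IL6R, JAK1, IL6ST, JAK2 and STAT6 lie to the right of 0, and PIM1 at −5.41, CEBPB at −0.95, BCL3 at −0.59 and CEBPD at −0.52 to the left.

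On a short list of STAT3 targets, the genes that passed the test were all lower with abemaciclib. The list held 10 genes, of which 7 were tested, 4 fell and 0 rose (1 upwards at an unadjusted p under 0.05, 0 by DESeq2), against 13.3% and 12.5% of all genes tested, and their median log2 fold change was −0.52, against −0.002. The gene at an unadjusted p under 0.05 was JUNB, at a log2 fold change of 0.36, which passed the adjusted threshold without DMSO replicate 2, without abemaciclib replicate 3, with no filter on low counts and with the replicate number in the model. PIM1, a survival kinase, had 31, 26 and 36 counts with DMSO and 2, 0 and 0 with abemaciclib. It was close to absent in every abemaciclib library, and the ratio of the summed counts was 0.0197, with a 95% interval of 0.00235 to 0.0731 (exact binomial, counting error only; edgeR adjusted p = 1.78e-06). CEBPB, a transcription factor of the acute-phase response, fell from 53.5 ± 6.97 to 27.8 ± 7.72 CPM (SD, n = 3), which on the log2 scale was a difference of −0.95. BCL3, a nuclear cofactor of NF-κB, fell by 0.59 on the log2 scale, from 80.9 ± 5.41 to 53.6 ± 3.45 CPM. CEBPD fell by 0.52, but its call was lost with DESeq2, with no filter on low counts, with the replicate number in the model and without any 1 of the 6 libraries, where its log2 fold change was between −0.57 and −0.46. SOCS3, the feedback inhibitor that STAT3 induces, was at −0.06 (95% confidence interval −1.30 to 1.19) and MCL1 at −0.06 (−0.27 to 0.15). FGG, LCN2 and CRP, acute-phase genes, had 0 counts in all 6 libraries.

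**Figure D4:**
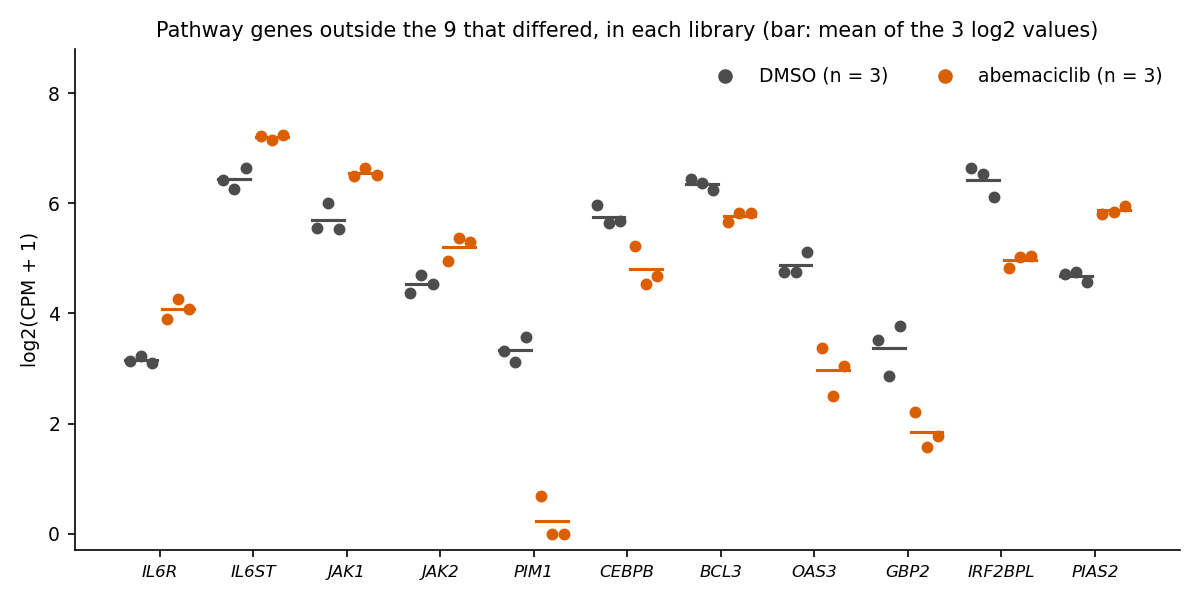
Level in each library, as log2(CPM + 1), of 11 pathway genes outside the 9 that passed the test, with DMSO in grey and abemaciclib in orange (n = 3 each) and a bar at the mean of the log2 values. In each of the 11 the groups do not overlap, and PIM1 drops to 0 in 2 of the 3 abemaciclib libraries. The 11 were drawn from genes that passed the test, so the separation adds no support. Other pathway genes that passed are not drawn, among them SAMHD1 and MAVS, whose groups overlapped.

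A list of 59 other interferon-induced genes showed no common direction. Of these, 25 were tested and 14 had 0 counts in all 6 libraries, among them IFIT2, IFIT3, RSAD2 and CXCL10, all strongly induced by interferon in other cells. With abemaciclib 4 were higher and 4 lower, against 12.5% and 13.3% of all genes tested, and the median log2 fold change of the 25 was −0.04, against −0.002 over all genes tested. OAS3, a relative of OAS1 that also responds to double-stranded RNA, had 26.1, 26.1 and 33.6 CPM with DMSO and 9.38, 4.69 and 7.30 CPM with abemaciclib, a log2 fold change of −2.02 (edgeR adjusted p = 1.04e-06). OAS2, of the same family, went the other way but had too few counts for the test. It had 2, 5 and 1 counts with DMSO and 3, 17 and 11 with abemaciclib, with overlapping groups. Its ratio was 3.54, with a 95% interval of 1.59 to 8.92 (exact binomial, counting error only). Other genes with too few counts went both ways with non-overlapping groups, MX2 and IFIT5 lower and DHX58 and PARP12 higher. MX2 had 3, 3 and 4 counts with DMSO and 0, 0 and 0 with abemaciclib. The ratio was 0.366 for IFIT5 (0.157 to 0.789), 2.38 for DHX58 (0.796 to 8.52) and 1.93 for PARP12 (1.09 to 3.52). GBP2, a guanylate-binding protein of the interferon gamma response, changed by a log2 value of −1.87 (adjusted p = 0.00224), from 9.80 ± 3.29 to 2.68 ± 0.855 CPM (SD, n = 3). LGALS3BP, a secreted glycoprotein, rose by 0.73 and TRIM25, the ubiquitin ligase that modifies the RNA sensor RIG-I, by 0.53 on the log2 scale. The other genes past the threshold, named after their values were seen, were LY6E (0.41) and ZNFX1 (0.50) upwards and ISG20 (−0.88) and SAMHD1 (−0.81) downwards. The call of ZNFX1 was lost without abemaciclib replicate 3 (0.33), and that of ISG20 without DMSO replicate 1 (−0.76), DMSO replicate 3 (−0.77) or abemaciclib replicate 3 (−0.64). The call of SAMHD1 did not hold with DESeq2, nor without DMSO replicate 1 (−0.90), 2 (−0.85) or 3 (−0.67) or abemaciclib replicate 1 (−0.49) or 2 (−0.73). The number called lower was 2 without DMSO replicate 1 and 2 without DMSO replicate 3. BST2, a membrane protein that tethers budding viruses, had 387 ± 31.8 CPM with DMSO and 476 ± 94.5 CPM with abemaciclib (SD, n = 3). Its groups overlapped, and its log2 fold change of 0.30 did not pass the test (edgeR adjusted p = 0.0522).

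Most genes of the ISG15 conjugation system had too few counts for a test. Of UBA7, UBE2L6, HERC5, HERC6 and USP18, the activating enzyme, the conjugating enzyme, a ligase, its relative and the protease that removes ISG15, only USP18 was tested. It had 10.2, 8.02 and 6.36 CPM with DMSO and 9.08, 8.64 and 9.46 CPM with abemaciclib, with overlapping groups and a log2 fold change of 0.14 (95% confidence interval −0.55 to 0.83). HERC5 had 3, 12 and 0 counts with DMSO and 5, 0 and 0 with abemaciclib, a ratio of 0.305 (95% interval 0.0867 to 0.882). The ratio was 0.535 for HERC6 (0.309 to 0.907) and 0.366 for UBE2L6 (0.0348 to 2.23). These intervals are exact binomial and cover counting error only, and the groups overlapped for each of these genes. UBA7 had 1 count over all 6 libraries.

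Of 15 genes listed as negative regulators of the pathway, 13 were tested. Of these, 3 were higher and 2 lower, against 12.5% and 13.3% of all genes tested, with a median log2 fold change of 0.01. PIAS2, a SUMO ligase named as an inhibitor of activated STAT proteins, rose from 24.7 ± 1.77 to 57.5 ± 3.13 CPM (SD, n = 3), which on the log2 scale was a difference of 1.22 (edgeR adjusted p = 1.49e-06). IRF2BPL changed by a log2 value of −1.50 and its relative IRF2BP2 by 0.62 (edgeR adjusted p = 2.1e-08 and 3.19e-05). The list was written from general knowledge, and a role of IRF2BPL in the pathway was not tested. PTPN1, a phosphatase that acts on JAK2 and TYK2, rose by 0.39. CISH, an inhibitor of cytokine receptors of the STAT5 route, fell by 0.54, and its call did not hold with DESeq2, nor without DMSO replicate 1, 2 or 3 (−0.55, −0.56 and −0.51) or abemaciclib replicate 2 (−0.49), which left 1 lower.

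Interferon ligands were not detected: IFNB1, IFNA1, IFNA2, IFNE, IFNK, IFNG, IFNL1, IFNL2 and IFNL3 had 0 counts in all 6 libraries, and so did the DNA sensor CGAS, within the limit that 0 counts allow. On the list of 22 nucleic acid sensors and ligands, 8 were tested, and 2 were higher and 1 lower, against 12.5% and 13.3% of all genes tested, with a median log2 fold change of 0.21. RNASEH2B, a subunit of the enzyme that removes RNA from DNA, changed by a log2 value of −1.33 (edgeR adjusted p = 0.00343), from 15.6 ± 3.73 to 6.11 ± 2.43 CPM (SD, n = 3). MAVS, the adaptor of the RNA sensors, rose by 0.46 and TICAM1, the adaptor of TLR3, by 0.37. The call of MAVS was lost without DMSO replicate 2 (0.35) or 3 (0.43) or abemaciclib replicate 2 (0.47) or 3 (0.30), and that of TICAM1 with DESeq2, with the replicate number in the model and without DMSO replicate 1 (0.36) or 3 (0.31) or abemaciclib replicate 1 (0.35) or 2 (0.38). Without DMSO replicate 3, and without abemaciclib replicate 2, 0 of the list were higher. STING1, the adaptor downstream of CGAS, had 0, 1 and 0 counts with DMSO and 7, 4 and 1 with abemaciclib, too few for a test.

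**Figure D5:**
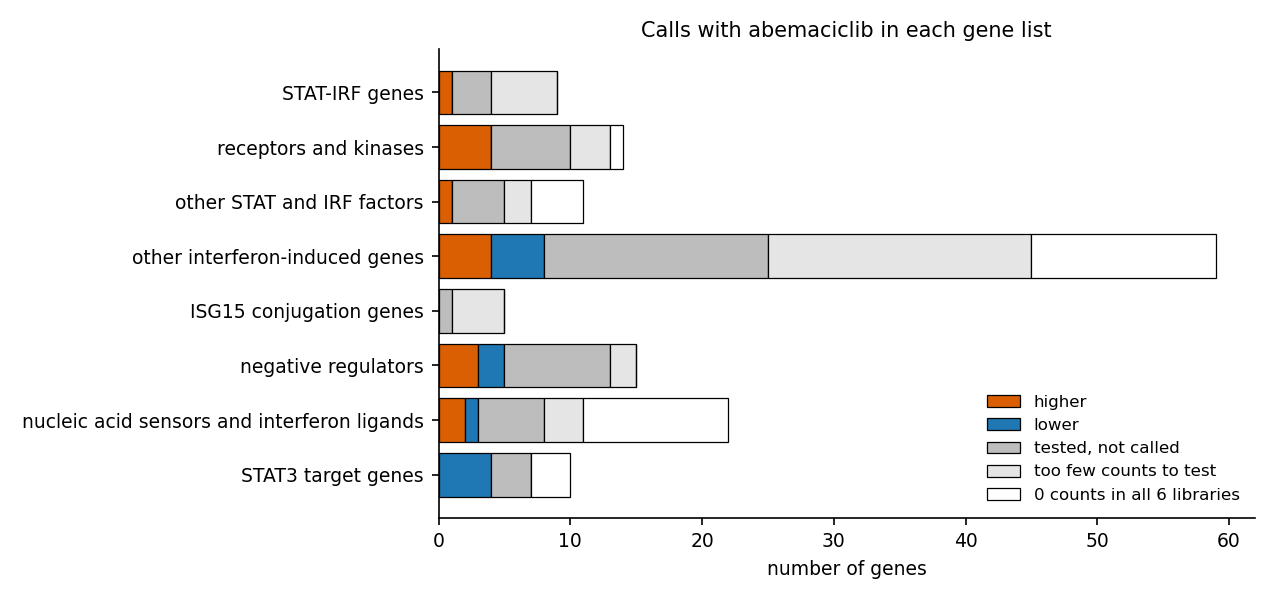
Number of genes in each list that were higher (orange) or lower (blue) with abemaciclib at an adjusted p under 0.05, tested without a call, below the count filter, or at 0 in all 6 libraries. The STAT3 target list has 4 lower and 0 higher, the receptor and kinase list 4 higher and 0 lower, and 14 of the 59 other interferon-induced genes had no count.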

How the data were processed

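RNA was measured in 6 libraries, grouped by the treatment in the labels. Per the methods, the authors removed adapters (BBDuk), used STAR 2.7.5b for alignment to hg38, and obtained counts per gene from featureCounts 2.0.1 with GENCODE v35. The deposited values are these raw counts, without normalization or a filter. The labels and the methods name the read direction of the kit differently, and the strand setting of the counting is not given in the sources used here. Overlapping genes are therefore uncertain.

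A symbol was found for 60401 gene identifiers, and 255 stayed without. Positions are from GENCODE v44 on the same assembly, and exons of other genes were searched in the last 500 bases of each main transcript. Genes were filtered with filterByExpr, scaled by TMM and tested in R 4.3.3 with edgeR 4.0.16 (glmQLFit and glmQLFTest, group as the only term, Benjamini-Hochberg adjustment over 10863 genes, threshold 0.05). The standard error is the log2 fold change divided by the square root of F. Replicates are numbered in the labels and described by the study as independent, and no 2 libraries had identical values. With 3 against 3 libraries an exact permutation test cannot go below 0.1, so none was run. Ratios of untested genes carry exact 95% intervals from SciPy 1.17.1, and no molecular identifiers are described, so they cover counting error only. The scripts were tested on simulated data.

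The members and lists were chosen from general knowledge with earlier results of these data known, so lists are described by counts and medians without a test. ADAR and SOCS3 are each on 2 lists, and 1 gene of the lists is not reported here. All 9 members were named, and by rule the 2 largest called changes in each direction from a longer list and any gene of a list of 15 or fewer. Other genes of the longer lists were named after their values were seen. Alternatives were DESeq2 1.42.0, its size factors in edgeR, total counts only, no filter, at least 10 counts in every library, a replicate block, a log2 fold change of at least 1, and each library left out.

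The replicate numbers showed no sign of pairing the libraries: deviations from the group means correlated at −0.0434, 0.00705 and −0.0893 across genes for replicates 1, 2 and 3. Between libraries with unlike numbers the values were −0.0551 to 0.0959. Such values cannot exclude a shared batch.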

Additional observations from a re-analysis of the deposited data

How the results depend on the processing

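At the 0.05 threshold STAT3 was called, and STAT2, IRF1 and IFI6 were not, in every fit that tested them. STAT2 dropped out under the minimum of 10 counts per library. A minimum log2 fold change of 1 left 0 of the 9 genes higher, and 322 genes higher and 645 lower in place of 1354 and 1442, by construction. The median log2 fold change was −0.06 with DESeq2 and −0.07 with no filter, because all 9 genes then entered, most with few counts. Leaving out single libraries, 1 of the 9 was higher and 0 lower, the median was 0.41 to 0.58, and 981 to 1412 genes were higher and 1132 to 1529 lower. With total counts only, 1266 were higher and 1506 lower. With the replicate block, STAT3 had a log2 fold change of 0.52 and STAT2 of 1.02, and 1 of the 9 was higher. In that fit 1139 genes were higher and 1280 lower, and CEBPD and TICAM1 were not called. The replicate numbers showed no sign of pairing the libraries. Of 564 recomputed values of single genes and lists outside the 9, 496 kept their side of the threshold or moved little, 34 moved and 34 lost the call. The median of the other interferon-induced genes, near 0, was between −0.08 and 0.05. Depth limits IRF9, IFIT1, ISG15, IFI27 and OAS1, for which only large changes would have been detectable.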

Other observations

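For 9 genes on the lists, another gene annotated on the same strand shares part of the last 500 bases of the main transcript. Their counts over all 6 libraries were 318 for IFI6, 182 for RIGI, 20 for IRF9, 17 for RNASEH2A, 12 for IFI30, 11 for IL10RB, 1 for CD68, and 0 for TREX1 and IFITM1. The partner gene was in the count table for 7 of them, and it was listed at 0 for 6 of the 7, the exception being ATRIP, which covers all 500 of these bases of TREX1 and had 363 counts. The part of the annotation in these low values was not tested.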
